A study of Mus musculus with 2 samples.

Results

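Foxp3 transcripts were examined cell by cell in tumour-infiltrating regulatory T cells (Tregs), comparing cells in which a Foxp3 UMI (a unique molecular identifier, 1 count per captured RNA molecule) was detected with cells in which none was. Foxp3 is 1 of the 32285 genes counted. Cells were kept with at least 500 detected genes, under 10% mitochondrial UMIs, at least 2 UMIs of Cd3d, Cd3e and Cd3g together and at least 5 UMIs of Il2ra, Ikzf2 and Ctla4 together. They had at most 1 UMI of Cd8a and Cd8b1 and at most 2 of Lyz2 and C1qa. These limits, which did not use Foxp3, kept 6146 of 8010 barcodes, with 2882 of 4105 in the cKO library and 3264 of 3905 in the WT library. A Foxp3 UMI was present in 973 of the cKO cells and 1003 of the WT cells.

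The cKO library came from C57BL/6 mice of the genotype JMJD1CTregcKO, in which the histone demethylase gene Jmjd1c is deleted conditionally in Tregs, and the WT library came from C57BL/6 mice of the genotype JMJD1CWT. Both groups were 8-12 weeks old, and both sets of cells were taken from digested tumours, selected with magnetic beads and sorted on a fluorescent signal before 10x Genomics sequencing of transcript 3' ends. Not stated in the labels used here are the tumour model, how many mice were used and of which sex, what drives the deletion, which exons it removes and what the fluorescent signal reports. With 1 library a group, no difference between cKO and WT could be tested against replicates, and every interval given is a 95% interval for counting error only.

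Foxp3 is a forkhead transcription factor encoded on the X chromosome, and Treg identity and suppressive function depend on it. It acts with partners such as Runx1, Gata3 and Ets1, and signals from the IL-2 receptor through STAT5 maintain its transcription. Transcription factor messages are often scarce, so a droplet assay can miss them in cells that carry the protein. In the GENCODE M21 annotation of mm10, Foxp3 (ENSMUSG00000039521) spans chrX:7573644-7595245 on the plus strand. Its last 1437 bases overlap Ccdc22 and its first 640 bases overlap Ppp1r3f, both on the minus strand. These neighbours were low in the kept cells, at 10.4 CPM (UMIs of a gene per 1000000 UMIs) in cKO and 11.4 CPM in WT for Ccdc22, and at 9.37 CPM in cKO and 5.88 CPM in WT for Ppp1r3f.

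The libraries differed in more than genotype. Kept cells had a median of 6364 UMIs in cKO and 8509 UMIs in WT. Xist, the X-inactivation RNA, had a UMI in 0.243% of cKO cells and 97.7% of WT cells, and Y-linked genes in 74.1% of cKO cells and 0 of 3264 WT cells, which allows a share of up to 0.0919%. Sex and genotype therefore cannot be told apart, for Foxp3 as for any gene. Jmjd1c itself stood at 74.1 CPM in cKO and 88.7 CPM in WT, but a 3' tag outside the deleted exons would not check the deletion. The libraries shared 2 barcodes, 1 of them among the kept cells of both.

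Foxp3 was at or near 0 in CD8 T cells and macrophages, and in cKO it was lower in T cells with few Treg marker UMIs. The kept cells held 1375 Foxp3 UMIs in cKO, or 57.7 CPM (54.7 to 60.9), and 1409 UMIs in WT, or 36.8 CPM (34.9 to 38.8). T cells with 2 to 4 UMIs of Il2ra (the IL-2 receptor alpha chain), Ikzf2 (the transcription factor Helios) and Ctla4 (an inhibitory receptor) had 30.3 CPM of Foxp3 in cKO (18.3 to 47.4; 109 cells) and 24.2 CPM in WT (12.5 to 42.2; 54 cells). T cells with at most 1 such UMI had 6.01 CPM in cKO (0.728 to 21.7), from 2 Foxp3 UMIs in 57 cells. In WT there were only 16 such cells, with 3 Foxp3 UMIs, and the interval of 9.25 to 131 CPM was too wide to place them. In cKO both intervals lay below that of the kept cells, while in WT the lowest class could not be ranked.

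Classes that should lack Foxp3 give its background. No CD8 T cell had a Foxp3 UMI, neither among 186 in cKO, which allows a share of up to 1.61%, nor among 12 in WT, which allows up to 25%. Macrophage or monocyte barcodes had 1 Foxp3 UMI in 191 cells in cKO, a share of 0.524%, and 0 in 36 cells in WT, which allows up to 8.33%. Their median depths were 7502.5 UMIs for cKO CD8 T cells and 12770 UMIs for cKO macrophages, both above the 6364 of the kept cKO cells. A Foxp3 UMI in a kept cell was therefore well above the rate in those classes, 33.8% in cKO (32.0 to 35.5) and 30.7% in WT (29.1 to 32.3).

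Within the kept cells, more marker UMIs did not go on giving more Foxp3. Cells with 5 to 9 marker UMIs had 33.9 CPM in cKO (25.1 to 44.9) and 31.7 CPM in WT (22.1 to 44.0). At 10 to 19 marker UMIs the level was 59.0 CPM in cKO (52.1 to 66.5) and 32.1 CPM in WT (27.3 to 37.6). At 20 to 39 it was 61.9 CPM in cKO (56.6 to 67.4) and 43.2 CPM in WT (39.7 to 47.0), and at 40 or more it was 57.2 CPM in cKO (52.5 to 62.2) and 34.1 CPM in WT (31.6 to 36.8). The cKO cells formed a plateau from 10 marker UMIs on, with intervals that overlapped, whereas the WT level peaked at 20 to 39 and was lower again above it. Cells with more marker UMIs also had more UMIs in all, with a median of 10331.5 in cKO and 15435.5 in WT at 40 or more, so the marker sum and depth move together here.

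**Figure D1:**
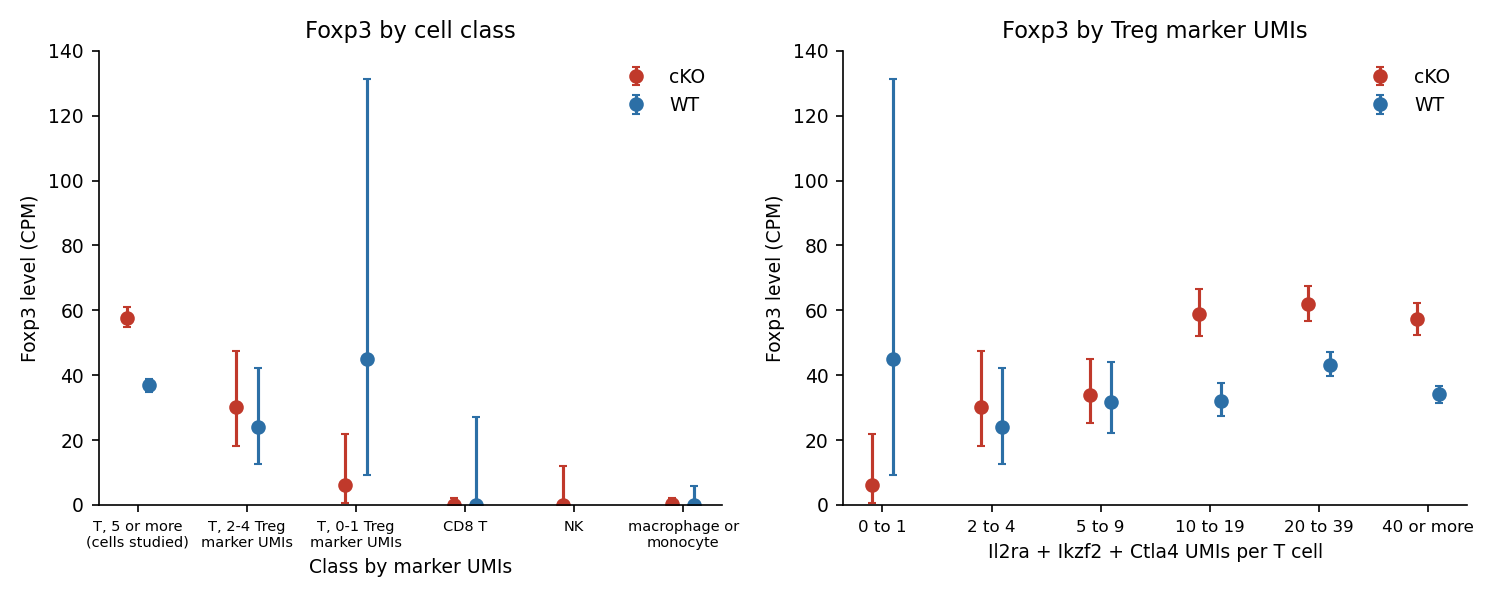
Foxp3 level (CPM, y axes) in cKO (red) and WT (blue), by cell class (left; classes with at least 10 cells) and by the summed UMIs of Il2ra, Ikzf2 and Ctla4 in T cells (right); points are levels over all cells of a class and bars are 95% counting intervals. Foxp3 was 57.7 CPM in the kept cKO cells and 36.8 CPM in the kept WT cells, and 0 in CD8 T cells of both libraries.

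Foxp3 was the smallest part of the transcriptome in the deepest cells. In cKO the level was 102.8 CPM (84.9 to 123) below 4000 UMIs, 74.7 CPM (67.1 to 83.0) at 4000 to under 6000 and 71.6 CPM (63.8 to 80.1) at 6000 to under 8000. It was 58.7 CPM (52.4 to 65.6) at 8000 to under 12000, 43.5 CPM (37.5 to 50.3) at 12000 to under 20000 and 25.7 CPM (21.1 to 31.0) at 20000 or more. The order in cKO was downward in every step, although the intervals of the bin at 6000 to under 8000 overlapped those of both its neighbours.

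In WT the level was flat and then lower. It was 47.4 CPM (27.1 to 76.9) below 4000 UMIs, 50.8 CPM (43.2 to 59.2) at 4000 to under 6000, 46.0 CPM (40.4 to 52.2) at 6000 to under 8000 and 52.4 CPM (47.4 to 57.8) at 8000 to under 12000. It was 37.4 CPM (33.4 to 41.6) at 12000 to under 20000 and 19.96 CPM (17.6 to 22.5) at 20000 or more. The intervals of the 4 shallower WT bins overlapped, that of 12000 to under 20000 UMIs still overlapped some of them, and that of the deepest bin lay below all others.

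Cycling cells and cells with markers of another lineage accumulated in the same deep bins. Cells with at least 2 UMIs of the proliferation genes Mki67 and Top2a made up 3.12% of cKO cells and 5.66% of WT cells below 4000 UMIs, but 68.9% of cKO cells and 70.7% of WT cells at 20000 or more. Cells with at least 20 UMIs of Cst3 (cystatin C, abundant in dendritic cells and macrophages) or at least 20 of the MHC class II genes H2-Aa, H2-Ab1 and H2-Eb1 were 18.5% of cKO cells and 14.7% of WT cells in that bin. Without them Foxp3 there was 28.0 CPM in cKO (22.6 to 34.2) and 21.6 CPM in WT (18.97 to 24.6), so the deepest bin stayed the lowest in both libraries. Other Treg genes were also lower there, and so was Cd4, which is not particular to Tregs. The level at 20000 or more UMIs over that at 6000 to under 8000 was 0.359 in cKO and 0.434 in WT for Foxp3, 0.498 in cKO and 0.488 in WT for Ikzf4 (the transcription factor Eos) and 0.363 in cKO and 0.317 in WT for Lrrc32 (GARP, which presents latent TGF-beta). The ratio was 0.786 in cKO and 0.688 in WT for Il2ra, and 0.622 in cKO and 0.708 in WT for Ctla4. Cd4 had 0.561 in cKO and 0.544 in WT, so the lower level was not confined to Treg genes. For Sdha, a mitochondrial respiratory enzyme, the same ratio was 1.06 in cKO and 1.14 in WT.

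The share of cells with a Foxp3 UMI was higher in deeper cells up to 8000 to under 12000 UMIs in cKO and up to the deepest bin in WT. It was 26.7% in cKO and 13.2% in WT below 4000 UMIs, 27.4% in cKO and 20.3% in WT at 4000 to under 6000, and 36.3% in cKO and 25.2% in WT at 6000 to under 8000. It was 40.9% in cKO and 35.4% in WT at 8000 to under 12000, 40.6% in cKO and 38.8% in WT at 12000 to under 20000, and 39.7% in cKO and 40.7% in WT at 20000 or more. In the deepest bin the shares of both libraries lay within each other's intervals. The unthinned share reads depth and level together, so it gives no order of Foxp3 between bins.

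**Figure D2:**
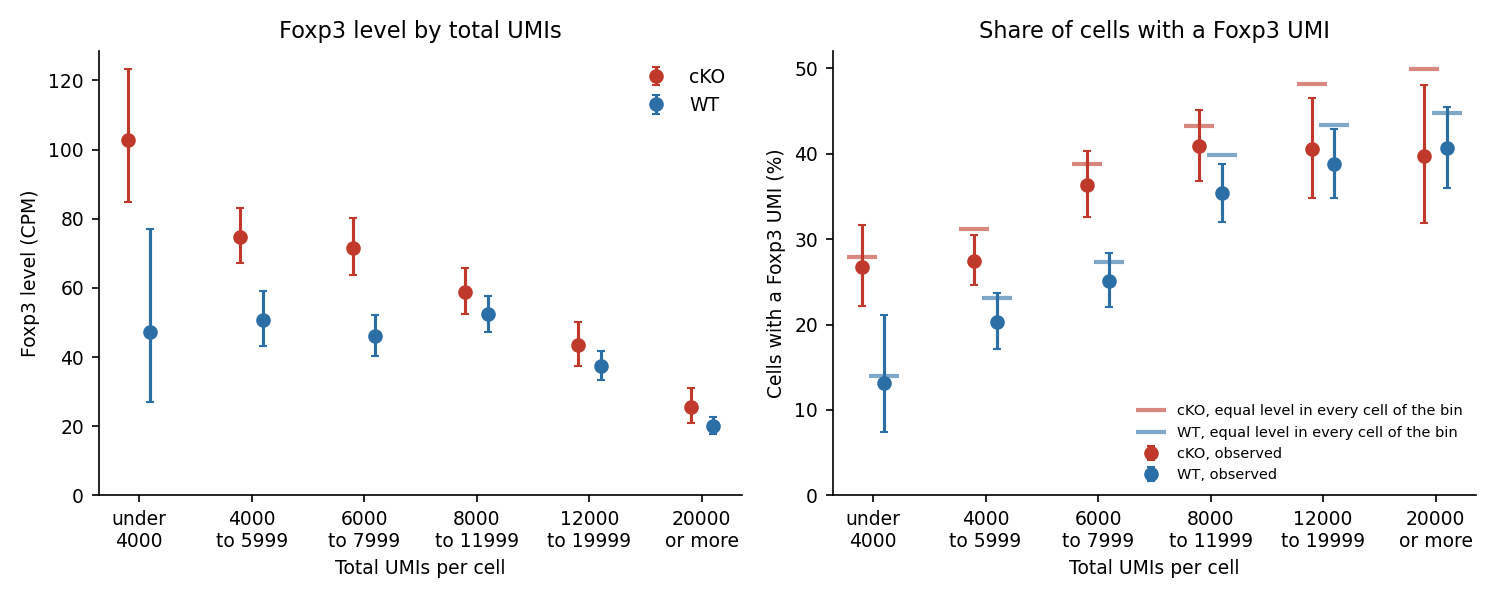
Foxp3 level (CPM, left) and percentage of cells with a Foxp3 UMI (right) by total UMIs per cell in cKO (red) and WT (blue); points carry 95% counting intervals, and dashes give the share if every cell of the bin held Foxp3 at the bin's level. The level was 25.7 CPM in cKO and 19.96 CPM in WT in the deepest bin, and most observed shares lay a little below the dashes.

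Foxp3 was higher in cKO than in WT over all kept cells, with a ratio of 1.57 (1.45 to 1.69). On the scale of log2(CPM + 5) the difference was 0.59, which placed Foxp3 at rank 277 from the top among 5057 genes averaging 20 CPM or more. In that comparison 15.8% of genes were higher and 12.9% lower in cKO by at least 0.32 on the log2 scale. Within UMI bins the ratio of cKO over WT was 2.17 (1.28 to 3.92) below 4000 UMIs, 1.47 (1.22 to 1.78) at 4000 to under 6000 and 1.56 (1.31 to 1.85) at 6000 to under 8000. It was 1.12 (0.964 to 1.303) at 8000 to under 12000, 1.17 (0.969 to 1.40) at 12000 to under 20000 and 1.29 (1.02 to 1.62) at 20000 or more. The ratio was above 1 in each of the 6 bins, and in the bins at 8000 to under 12000 and 12000 to under 20000 its interval included 1. The cKO library also held relatively more shallow cells, where its Foxp3 level was highest.

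Thinning every cell to 4000 UMIs put both libraries at the same depth. A Foxp3 UMI then remained in 21.7% of 2530 cKO cells (20.1 to 23.4) and 15.6% of 3158 WT cells (14.4 to 16.9), with 352 cKO cells and 106 WT cells left out as too shallow. CD8 T cells thinned alike kept a Foxp3 UMI in 0 of 169 cells in cKO, which allows up to 1.78%, and in 0 of 12 in WT, which allows up to 25%.

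The share of Foxp3-detected cells was a little below the share that counting scarce transcripts at an equal level would give. If every cell of a UMI bin held Foxp3 at the level of its bin, 37.4% of cKO cells and 34.2% of WT cells would have shown a UMI, and the observed shares were 0.903 of that in cKO and 0.899 in WT. The same quotient was 1.01 in cKO and 0.989 in WT for Sdha, and 0.961 in cKO and 0.963 in WT for Polr2a, the large subunit of RNA polymerase II. Among Treg genes it was 0.966 in cKO and 0.923 in WT for Ccr8, 0.828 in cKO and 0.809 in WT for Lrrc32 and 0.803 in cKO and 0.848 in WT for Ikzf4. For Il10, an anti-inflammatory cytokine made by a subset of Tregs, it was 0.515 in cKO and 0.389 in WT. For Ikzf2, Ctla4 and Tnfrsf18, which had a UMI in over 95% of cells, it lay between 0.960 and 0.998. The quotient depends on a gene's level and nears 1 where almost every cell has a UMI, so it does not rank these genes by how evenly they were spread. The variance of UMIs per cell over their mean was 1.33 in cKO and 1.35 in WT for Foxp3, and 1.35 in cKO and 1.87 in WT for Sdha. This variance was taken over cells of all depths and includes the spread of total UMIs. It therefore does not compare how evenly these genes were spread.

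The Foxp3 UMIs per cell show the same excess at both ends. In cKO 1909 cells had 0 UMIs, 682 had 1, 211 had 2, 58 had 3 and 22 had 4 or more, with a maximum of 6. At an equal level per bin, 1805 cKO cells would have had 0 UMIs, 829 would have had 1, 205 would have had 2, 36.7 would have had 3 and 6.10 would have had 4 or more. In WT 2261 cells had 0 UMIs, 710 had 1, 205 had 2, 69 had 3 and 19 had 4 or more, with a maximum of 5. At an equal level per bin, 2149 WT cells would have had 0 UMIs, 871 would have had 1, 203 would have had 2, 35.6 would have had 3 and 6.22 would have had 4 or more. Cells with none and cells with 3 or more were more frequent than at an equal level, and cells with exactly 1 were less frequent, in both libraries.

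Foxp3 was higher in cells with a UMI of some tumour Treg genes than in cells without one at the same depth. Cells with an Il1rl1 UMI (ST2, the IL-33 receptor) had 69.2 CPM of Foxp3 against 48.3 CPM in matched cells in cKO, a ratio of 1.43 (1.252 to 1.64). In WT they had 42.3 CPM against 31.6 CPM, a ratio of 1.34 (1.13 to 1.59). Cells with a UMI of Ccr8, a chemokine receptor of tumour Tregs, had 56.9 CPM against 42.0 CPM in matched cells in cKO, a ratio of 1.36 (1.07 to 1.72), and 39.1 CPM against 27.8 CPM in WT, a ratio of 1.41 (1.16 to 1.70). These 2 states had intervals above 1 in both libraries.

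Other states showed smaller differences in Foxp3 or none that counting error could resolve in both libraries. The ratio was 1.19 in cKO (1.02 to 1.38) and 1.09 in WT (0.923 to 1.29) for cells with at least 5 UMIs of Gzmb, the cytotoxic protease granzyme B. In cKO that state held 2127 of the 2882 cells and 745 of them could be matched, against 656 of 657 in WT. The ratio was 1.17 in cKO (1.02 to 1.34) and 1.04 in WT (0.879 to 1.23) for cells with at least 5 UMIs of the interferon-induced genes Ifit1, Ifit3 and Isg15. For cells with an Il10 UMI it was 1.095 in cKO (0.947 to 1.27) and 1.16 in WT (0.902 to 1.51). Cycling cells had a Foxp3 ratio of 0.979 in cKO (0.797 to 1.20) and 0.901 in WT (0.759 to 1.07) against cells of the same depth, so at matched depth the interval for cycling cells included 1 in both libraries. Cells with at least 5 UMIs of the quiescence genes Klf2 and S1pr1 gave 1.15 in cKO (0.948 to 1.40) and 1.04 in WT (0.776 to 1.40). Cells with at least 10 UMIs of the heat-shock genes Hspa1a and Hspa1b gave 0.826 in cKO (0.608 to 1.12) and 1.26 in WT (0.868 to 1.83), on opposite sides of 1 with wide intervals.

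**Figure D3:**
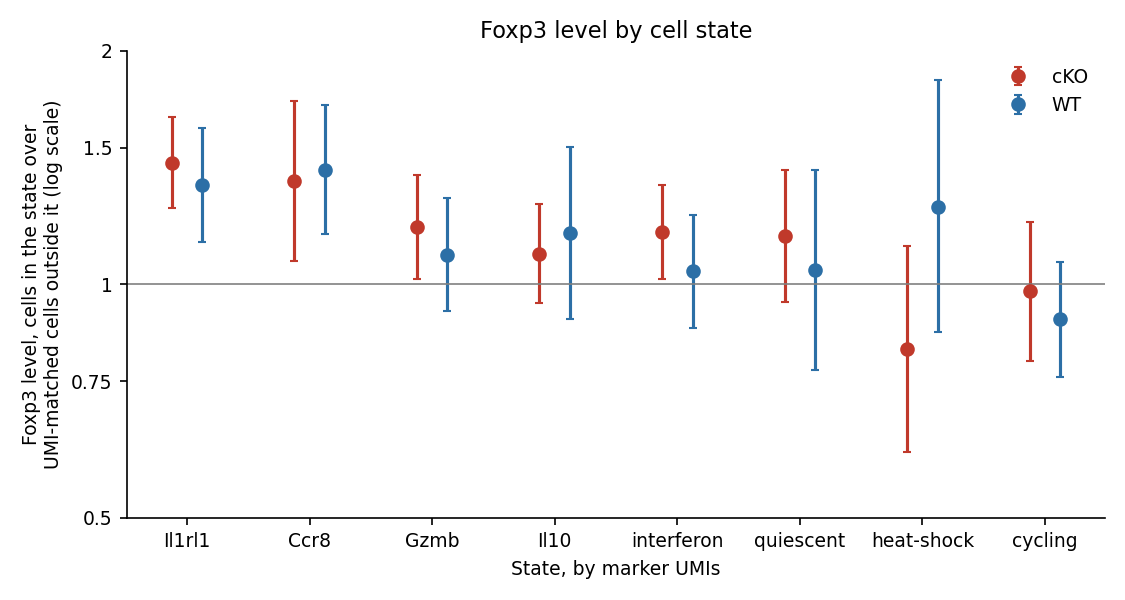
Ratio of the Foxp3 level in cells of a state over UMI-matched cells outside it (log axis) in cKO (red) and WT (blue), with 95% counting intervals; the line marks a ratio of 1. Cells with an Il1rl1 UMI (1.43 in cKO, 1.34 in WT) and cells with a Ccr8 UMI (1.36 in cKO, 1.41 in WT) lay above 1 in both libraries.

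To ask which other genes went with Foxp3, each Foxp3-detected cell was paired within its library with an undetected cell of nearly the same total UMIs. This gave 969 pairs in cKO and 1001 in WT, with 4 detected cells in cKO and 2 in WT left unpaired. Detected cells had a median of 7031 UMIs against 7043 in undetected cells in cKO, and 10060 UMIs against 10074 in WT. Detected genes, mitochondrial UMIs and the share of cycling cells were also close, with 13.9% cycling on the detected side against 13.6% on the undetected side in cKO and 25.3% on both sides in WT. Ribosomal protein genes held a median of 16.4% of UMIs in detected cells against 17.3% in undetected cells in cKO, and 22.1% against 22.9% in WT.

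Few genes differed by a set size between cells with and without a Foxp3 UMI. Foxp3 averaged 0.48 UMIs a cell in cKO and 0.43 in WT, so undetected cells include cells that carry Foxp3. Few differences therefore do not show that cells with and without Foxp3 are alike. Of 2435 genes averaging 50 CPM or more in each library, 1 gene (0.0411%) was higher and 4 genes (0.164%) were lower by at least 0.32 on the log2 scale in detected cells of both libraries, the size taken as a call. The gene that was higher was Klrg1 and the genes that were lower were Cst3, Ifitm1, Ccl5 and Irf8. Over the 2435 genes the log2 ratios of the libraries, which share no cells, had a Pearson r of 0.40 and a Spearman rho of 0.43, and 65.5% had the same sign. This correlation is across genes, which are not independent replicates.

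The 12 highest genes in Foxp3-detected cells were led by Klrg1 and Il7r and also held Il2ra. Klrg1, an inhibitory receptor of terminally differentiated effector Tregs, had 259.8 CPM in detected cells against 194 CPM in undetected cells in cKO, a log2 ratio of 0.41, and 137 CPM against 100.1 CPM in WT, a log2 ratio of 0.43. Il7r, the IL-7 receptor alpha chain, had 206 CPM against 167 CPM in cKO, a log2 ratio of 0.30, and 304 CPM against 246 CPM in WT, also 0.30. Il2ra, which was part of the cell limits, had 669 CPM against 539 CPM in cKO, a log2 ratio of 0.31, and 495 CPM against 418 CPM in WT, a log2 ratio of 0.24. Il7r is low in Tregs in textbook accounts. Its place beside Il2ra among the 12 highest genes goes against the list of genes that Foxp3 lowers. Il7r was also on a list of quiescent or lymphoid Treg genes, which its place does not go against. Of those 11 genes 4 had at least 50 CPM, and 2 were higher and 1 lower in both libraries. The lower gene was Ccr7, at -0.15 in cKO and -0.30 in WT.

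The rest of the 12 highest genes were Hnrnpll, Asb2, Gpr183, Socs1, Raph1, Stk10, Zeb1, Paxbp1 and Peak1. Socs1, a feedback inhibitor of cytokine signalling, had log2 ratios of 0.25 in cKO and 0.32 in WT. Gpr183, an oxysterol receptor that guides lymphocyte migration, had 0.31 in cKO and 0.26 in WT, and Zeb1, a zinc-finger repressor, had 0.34 in cKO and 0.23 in WT. Hnrnpll, an RNA-binding splicing regulator of lymphocytes, had 0.31 in cKO and 0.28 in WT. Asb2, a subunit of a ubiquitin ligase, had 0.34 in cKO and 0.27 in WT. The remaining 4, Raph1, Stk10, Paxbp1 and Peak1, lay between 0.22 and 0.25 in cKO and between 0.23 and 0.32 in WT. Some of these values were smaller under another setting. Without cycling cells Zeb1 was at 0.14 and Paxbp1 at 0.12 in WT, and Gpr183 at 0.21 in cKO. With every gene thinned to 4000 UMIs Zeb1 was at 0.02 and Paxbp1 at 0.06 in WT. With pairs matched also on detected genes Il7r was at 0.19 in WT.

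Of 18 Treg identity genes 13 had at least 50 CPM and none was called. Of these 13, 8 were higher and 0 lower in detected cells of both libraries, and 5 lay on opposite sides of 0. Their median log2 ratio was 0.21 in cKO and 0.09 in WT, against 0.03 in cKO and 0.01 in WT over all 2435 genes, of which 952 were higher and 643 lower in both libraries. The list includes Il2ra, Ikzf2 and Ctla4, whose UMIs chose the cells. Without them 10 genes were left, of which 5 were higher, 0 lower and 5 opposite, with a median of 0.17 in cKO and 0.01 in WT. Ctla4, part of the cell limits, had 2238 CPM in detected cells against 1841 CPM in undetected cells in cKO, a log2 ratio of 0.28, and 1287 CPM against 1111 CPM in WT, a log2 ratio of 0.21. Ikzf2, also part of the limits, had log2 ratios of 0.21 in cKO and 0.16 in WT. Ikzf4 had 0.27 in cKO and 0.15 in WT, and Tnfrsf18 (GITR, a costimulatory receptor) had 0.18 in cKO and 0.13 in WT. The receptor genes that define T cells were level, since Cd3d, Cd3e and Cd3g lay between -0.03 and 0.04 in both libraries, and Cd4 was at 0.05 in cKO and 0.12 in WT.

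Of 14 genes of IL-2 receptor and STAT5 signalling 12 had at least 50 CPM, none was called, and 9 were higher, 0 lower and 3 opposite in the 2 libraries, with a median of 0.18 in cKO and 0.08 in WT. Without Il2ra the median was 0.17 in cKO and 0.06 in WT. Il2rg, the common gamma chain, had log2 ratios of 0.16 in cKO and 0.14 in WT. Among 23 tumour effector Treg genes 16 had at least 50 CPM, 1 was called (Klrg1), and 11 were higher and 0 lower in both. Maf, a transcription factor of effector Tregs, had 0.24 in cKO and 0.22 in WT, and Batf, an AP-1 family factor of tumour Tregs, had 0.19 in cKO and 0.22 in WT. Gzmb had 0.13 in cKO and -0.03 in WT, on opposite sides of 0. Il1rl1 had 143 CPM in detected cells against 93.4 CPM in undetected cells in cKO, a log2 ratio of 0.59, and 53.2 CPM against 36.5 CPM in WT, a log2 ratio of 0.49. Its WT mean lay below 50 CPM, so it was outside the ranking. Without cycling cells its log2 ratio was 0.41 in cKO and 0.21 in WT.

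Partners and regulators of Foxp3 were mixed. Of 35 such genes 15 had at least 50 CPM, and 9 were higher and 4 lower in both libraries, with none called. Gata3, a lineage factor that Tregs share with type 2 helper cells, had 0.21 in cKO and 0.25 in WT, and Ets1, which binds the Foxp3 locus, had 0.13 in cKO and 0.12 in WT. Nr4a2, an orphan nuclear receptor induced by the T cell receptor, went the other way at -0.60 in cKO and -0.24 in WT. Of 11 genes that Foxp3 lowers in textbook accounts, 4 had at least 50 CPM, and 2 were higher and 2 lower in both libraries. Il7r and Satb1, a chromatin organiser, were higher in both (Satb1 at 0.06 in cKO, interval -0.03 to 0.15, and 0.18 in WT). Zap70, a kinase of T cell receptor signalling, was at -0.09 in cKO (-0.19 to 0.003) and -0.05 in WT (-0.14 to 0.04), so counting error did not resolve its sign. The textbook targets that passed the floor therefore lay on both sides, and some of their differences were within counting error.

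No proliferation, interferon or stress gene was called. Of 14 proliferation genes above the floor 1 was higher and 4 lower in both libraries, with a median of -0.03 in cKO and -0.05 in WT. Of 5 interferon genes 2 were higher and 2 lower in both, and Irf7, a regulator of interferon production, had -0.06 in cKO and -0.28 in WT. Of 10 stress genes 0 were higher and 5 lower in both, with a median of -0.02 in cKO and -0.03 in WT. Jmjd1c lay at -0.07 in cKO and 0.16 in WT.

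Of the 12 lowest genes in Foxp3-detected cells, 5 belonged to MHC class II antigen presentation, and Cst3 was the lowest. Cst3 had 634 CPM in detected cells against 1222 CPM in undetected cells in cKO, a log2 ratio of -0.94, and 511 CPM against 1136 CPM in WT, a log2 ratio of -1.14. The 20 cells with the most Cst3 held 61.5% of its UMIs on the detected side against 79.6% on the undetected side in cKO, and 41.1% against 61.5% in WT. H2-Aa, an MHC class II chain, had a log2 ratio of -0.25 in cKO and -1.11 in WT, and the 20 cells with the most held 96.8% of its UMIs on the detected side against 91.7% on the undetected side in cKO, and 92.3% against 86.7% in WT. Few cells thus held most of the H2-Aa UMIs on both sides, although more cells had a UMI of it. An H2-Aa UMI occurred in 14.2% of undetected cells in cKO and 17.8% in WT, and in a smaller share of detected cells in both. The share was also smaller in detected cells of both libraries for H2-DMa, but larger for H2-Ab1 and Cd74. H2-Ab1 occurred in 18.7% of detected against 17.3% of undetected cells in cKO, and in 33.9% against 33.1% in WT. The share of H2-Eb1 was smaller in detected cells in cKO only, and that of Cst3 in WT only. Iscu, an iron-sulfur cluster scaffold, Nhp2 and Serpinb9 were also among the 12 lowest, and there the 20 highest undetected cells held between 18.1% and 29.0% of the UMIs. Iscu was at -0.32 in cKO and -0.31 in WT over all pairs. Without the cells with at least 20 UMIs of Cst3 or of the class II genes it was at -0.30 in cKO but at -0.0017 in WT. H2-Ab1, H2-Eb1, H2-DMa and Cd74, the other class II chains, the loading factor and the invariant chain, were also among the 12 lowest, with log2 ratios from -0.36 to -0.24 in cKO and from -1.04 to -0.31 in WT.

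Leaving out the cells with at least 20 UMIs of Cst3 or of the class II genes removed 59 cKO cells and 82 WT cells, an alternative chosen after the values had been seen. The paired sides had held 18 such cells among detected against 29 among undetected cells in cKO, and 22 against 42 in WT. Cst3 was then at 0.03 in cKO and 0.07 in WT. Of 2421 genes, 2 (0.0826%), Klrg1 and Il7r, were called higher and 0 (0%) lower. Ifitm1 then averaged under 50 CPM in WT and was not ranked, although its difference was larger, with 10.8 CPM in detected cells against 209 CPM in undetected cells in cKO and 3.08 CPM against 15.2 CPM in WT. The 8 dendritic cell markers summed to 2518 CPM in detected cells against 3490.4 CPM in undetected cells in cKO and 1535 CPM against 2970.4 CPM in WT, with no marker at 0. Without the left-out cells they summed to 583 CPM against 564 CPM in cKO and 701 CPM against 660 CPM in WT. The 10 macrophage markers stood at 156 CPM against 348 CPM in cKO and 58.5 CPM against 108 CPM in WT over all pairs, and at 61.9 CPM against 236 CPM in cKO and 21.1 CPM against 20.1 CPM in WT without the left-out cells. Macrophage markers thus stayed higher on the undetected side in cKO, and their part in the results was not tested. Klrg1 was at 0.40 in cKO and 0.39 in WT without these cells, and Il7r at 0.35 in cKO and 0.34 in WT.

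Ifitm1, an interferon-induced membrane protein, had 240.3 CPM in detected cells against 406 CPM in undetected cells in cKO, and 79.2 CPM against 153 CPM in WT, with log2 ratios of -0.74 in cKO and -0.90 in WT. A UMI of it occurred in 7.84% of detected cells against 11.5% of undetected cells in cKO, and in 4.50% against 7.29% in WT. The 20 cells with the most Ifitm1 held 97.0% of its UMIs on the detected side against 79.0% on the undetected side in cKO. In WT they held 97.6% against 96.0%, so its ratios rest on few cells, which a counting interval does not cover. Summed markers of CD8 T and NK cells (9 genes) stood at 46.6 CPM on the detected side against 589 CPM on the undetected side in cKO, and 24.3 CPM against 41.9 CPM in WT, with 1 of the 9 at 0 in detected cells of cKO, 0 in undetected cells of cKO and 2 on each side in WT. Without the cells rich in Cst3 or class II they stood at 24.2 CPM against 466 CPM in cKO and 16.6 CPM against 25.8 CPM in WT. Without 39 cKO cells and 5 WT cells with NK markers, an alternative also chosen after the values had been seen, Ifitm1 was at -0.09 in cKO and -0.78 in WT. Ccl5, a chemokine of effector lymphocytes, had -0.48 in cKO and -0.69 in WT. Without the cells rich in Cst3 or class II it was at -0.51 in cKO and 0.01 in WT. Irf8, a transcription factor of myeloid and activated lymphoid cells, had -0.43 in cKO and -0.49 in WT, and -0.18 in cKO and -0.00025 in WT without those cells. Serpinb9, an inhibitor of granzyme B, was at -0.33 in cKO and -0.25 in WT, and still at -0.26 in cKO and -0.16 in WT without them.

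**Figure D4:**
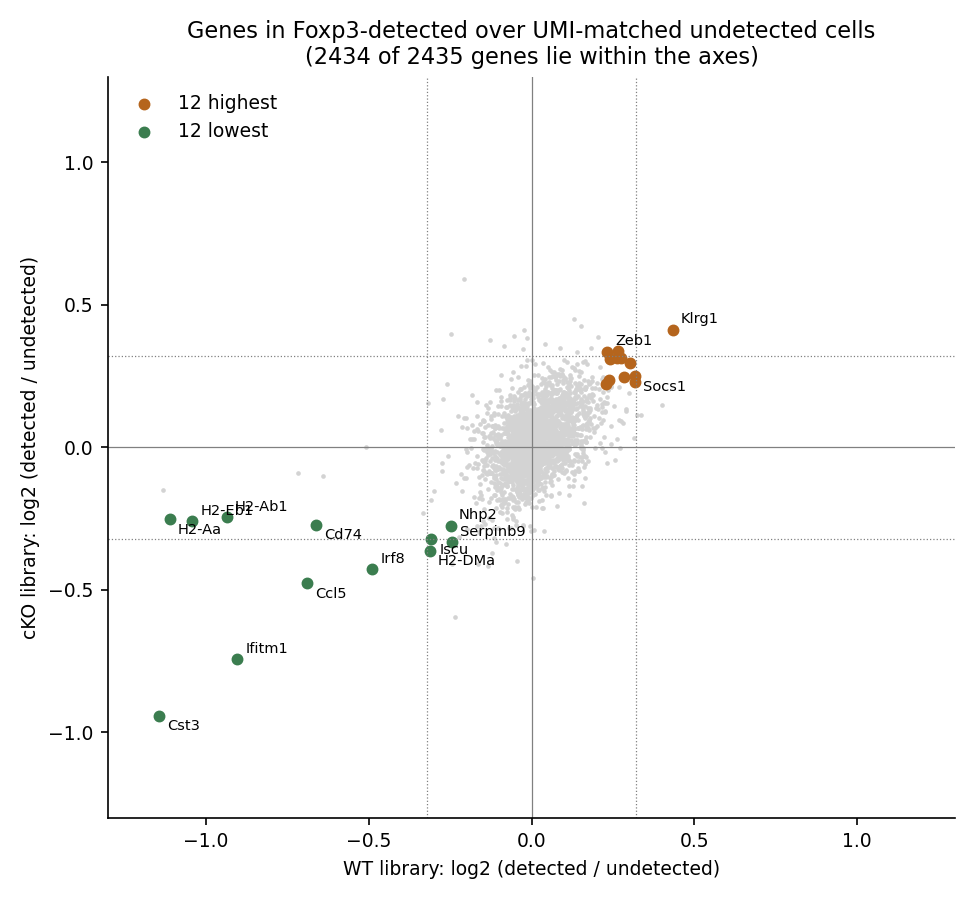
Log2 ratio of Foxp3-detected over UMI-matched undetected cells for each gene in the cKO library (y axis) and the WT library (x axis), with the 12 highest genes in brown and the 12 lowest in green; dotted lines mark a log2 ratio of 0.32 either way. Klrg1 (0.41 in cKO, 0.43 in WT) lies past the line in both libraries, and Cst3 (-0.94 in cKO, -1.14 in WT) lies farthest down.

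The pairs were divided by whether the detected cell held 2 or more Foxp3 UMIs (289 pairs in cKO, 293 in WT) or exactly 1 (680 pairs in cKO, 708 in WT), so that no cell was in both sets. This division was chosen after the results for all pairs had been seen, and the genes had been chosen on the same pairs, so the values are a description. Of the 12 highest genes, 11 in cKO and 10 in WT had a larger log2 ratio at 2 or more UMIs than at 1. Their median log2 ratio was 0.47 in cKO and 0.38 in WT at 2 or more UMIs, and 0.20 in cKO and 0.24 in WT at 1 UMI. Of the 12 lowest genes, 10 in cKO and 7 in WT were lower at 2 or more UMIs than at 1. Others went the opposite way, as did H2-Aa in WT, at -0.77 with 2 or more UMIs and -1.29 with 1, and Ccl5 in cKO, at -0.14 with 2 or more UMIs and -0.64 with 1. At 2 or more UMIs 25 of 2427 genes (1.03%) were called higher and 17 (0.7%) lower, and at 1 UMI 1 of 2414 genes (0.0414%) was called higher and 7 (0.29%) lower. With fewer pairs the counting error of every gene is wider at 2 or more UMIs, so these counts do not compare the sets. The sets also differed in depth, with a median of 7857 UMIs in cKO and 11418 in WT for detected cells at 2 or more. At 1 Foxp3 UMI the medians were 6721.5 in cKO and 9506 in WT. Pairing the cells with 2 or more UMIs anew gave 46 genes higher and 12 lower, so the counts also depend on the partners. A larger ratio at 2 or more UMIs can likewise lie in the partners. Asb2 in cKO had 102 CPM in detected cells at 2 or more UMIs and 99.5 CPM at 1, but 59.8 CPM and 87.2 CPM in their partners.

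Il1rl1 showed the largest step in log2 ratio among the genes plotted by Foxp3 UMIs. At 2 or more Foxp3 UMIs it had 183 CPM in detected cells against 82.4 CPM in undetected cells in cKO, and 59.9 CPM against 27.6 CPM in WT. At 1 Foxp3 UMI it had 123 CPM against 98.9 CPM in cKO, and 49.9 CPM against 40.8 CPM in WT. Its log2 ratio was thus 1.104 in cKO and 0.99 in WT at 2 or more UMIs, and 0.30 in cKO and 0.26 in WT at 1 UMI. Part of this step lay in the undetected partners, which had less Il1rl1 in the set with 2 or more UMIs. In WT it was the larger part.

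Il2ra followed the same order, at 0.54 in cKO and 0.42 in WT at 2 or more UMIs, and 0.19 in cKO and 0.15 in WT at 1 UMI. Il7r was at 0.56 in cKO and 0.48 in WT at 2 or more UMIs, and 0.18 in cKO and 0.22 in WT at 1 UMI. Klrg1 was at 0.50 in cKO and 0.68 in WT at 2 or more UMIs, and 0.37 in cKO and 0.30 in WT at 1 UMI. Ctla4 barely differed between the sets, at 0.29 in cKO and 0.23 in WT at 2 or more UMIs, and 0.28 in cKO and 0.20 in WT at 1 UMI. Cd3e stayed level, at 0.05 in cKO and -0.04 in WT at 2 or more UMIs, and 0.03 in cKO and 0.02 in WT at 1 UMI. Il1rl1, Il2ra and Il7r thus had the higher ratio in the set with more Foxp3 UMIs in both libraries, while Cd3e was near 0 in both sets. For Il7r the step lay in the undetected partners. Detected cells had 206 CPM of Il7r in both sets in cKO, and in WT 298 CPM at 2 or more UMIs against 307 CPM at 1. Their partners had 138 CPM at 2 or more UMIs against 181 CPM at 1 in cKO, and 212 CPM against 262 CPM in WT. Il7r in detected cells was therefore not higher with more Foxp3 UMIs.

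Il18r1 and Rrad were among the 12 highest genes at 2 or more Foxp3 UMIs and not among the 12 highest over all pairs, and are named after their values were seen. Il18r1, a chain of the IL-18 receptor, had 130.4 CPM in detected cells against 92.5 CPM in undetected cells in cKO, a log2 ratio of 0.47, and 139 CPM against 94.1 CPM in WT, a log2 ratio of 0.54. Rrad, a small GTPase of the RGK family, had 176 CPM against 109 CPM in cKO, a log2 ratio of 0.66, and 107 CPM against 72.0 CPM in WT, a log2 ratio of 0.54.

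**Figure D5:**
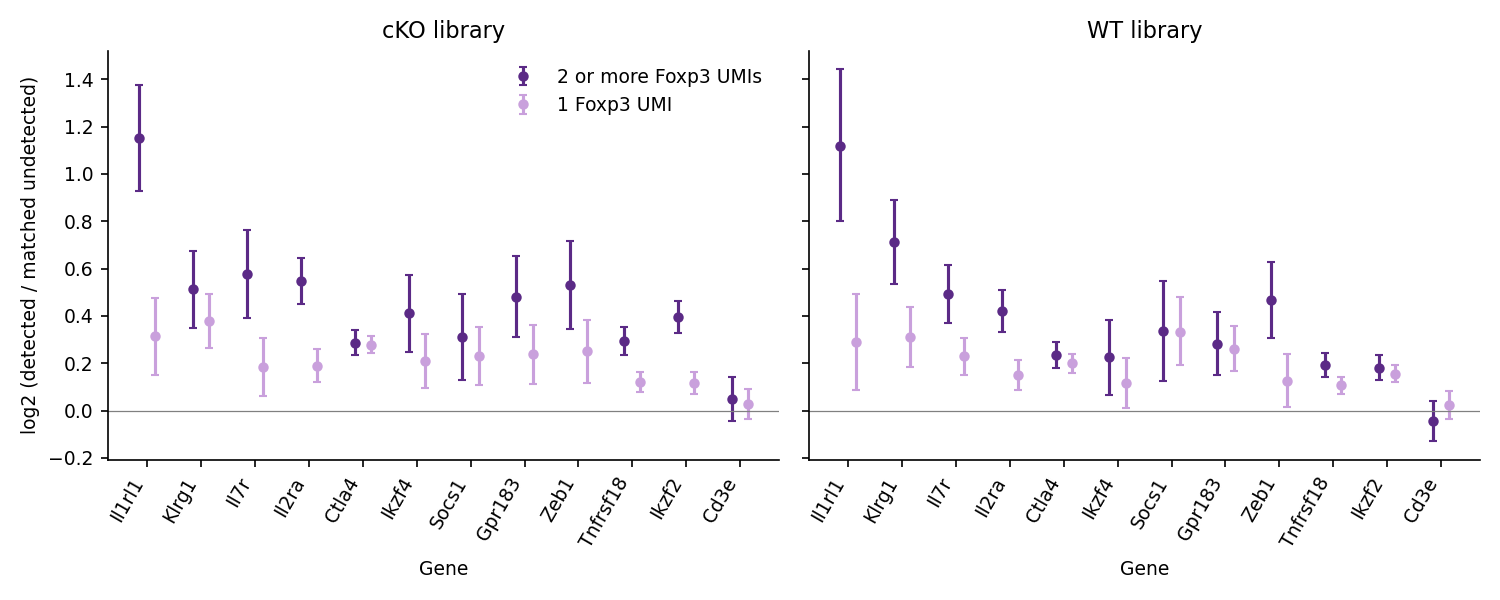
Log2 ratio without pseudocount of Foxp3-detected over UMI-matched undetected cells (y axis) for 12 genes in the cKO library (left) and the WT library (right), in pairs whose detected cell had 2 or more Foxp3 UMIs (dark) or 1 (light), with 95% counting intervals. The ratios of Il1rl1, Il7r and Il2ra were higher in the dark set in both libraries, for Il7r through its undetected partners, while Ctla4 and Cd3e were close in both sets.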

How the data were processed

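Per the labels' protocols, tumour Tregs were profiled with a 10x Genomics 3' kit, and the deposited UMI counts came from Cell Ranger 5.0.1 on mm10, per the submitters' processing notes. Not given here are the annotation release, whether intronic reads were counted and whether cells or doublets were removed before deposit. The counts were used as deposited. No doublet caller was run, and cells with markers of other lineages were examined in its place. Depth was 23809545 UMIs in the kept cells of cKO and 38261047 in those of WT.

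UMIs summed over cells were scaled to CPM, with 95% intervals from the exact Poisson distribution. Shares have Clopper-Pearson intervals and ratios exact conditional binomial intervals, without pseudocount. Where no cell had a UMI, the share allowed is instead 3 divided by the number of cells, an approximate limit. It lies slightly below the Clopper-Pearson upper bound, as at 1.61% against 1.96% for cKO CD8 T cells. Log2 ratios used a pseudocount of 5 CPM, which understates differences of low genes. Each detected cell was paired within its library with an undetected cell within 0.1 log2 of its total UMIs less Foxp3 (optimal assignment, scipy 1.17.1). The states were compared with cells outside them in the same way. Called means at least 0.32 on the log2 scale the same way in both libraries, among genes averaging 50 CPM or more in each. With 1 library a group no p-value was computed.

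Genes named in the paired comparison are the 12 highest and 12 lowest by the smaller absolute log2 ratio of both libraries, up to 3 members of each gene list and a set of Treg and marker genes. The ranking left out antigen receptor segments, mitochondrial genes, unnamed models, Xist, Tsix and genes of the Y chromosome. No gene met the rule for opposite signs. Foxp3, the gene lists and the tests were chosen with earlier results of these data known. The ratios and calls were checked on simulated counts for genes with known folds. Those counts varied by counting error alone, so the check does not cover genes whose UMIs lie in few cells. Alternatives covered the marker and depth limits, cycling cells, scaling, thinning, the match, the floor and the fold.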

Additional observations from a re-analysis of the deposited data

How the results depend on the processing

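The log2 difference of Foxp3, 0.59 in cKO over WT, was 0.49 without cycling cells, 0.54 scaled by the median ratio of all genes, 0.52 with UMI bins weighted equally and 0.35 in cells with 8000 or more UMIs, an alternative added after seeing the data. It lay between 0.56 and 0.64 under the others. The share thinned to 4000 UMIs was 21.7% in cKO and 15.6% in WT. Thinned to 3000 UMIs it was 17.9% in cKO and 11.5% in WT, and thinned to 6000 UMIs 26.1% in cKO and 21.2% in WT. The 1 gene called higher and 4 called lower became 6 higher and 14 lower with every gene thinned to 4000 UMIs, 46 and 12 with 2 or more Foxp3 UMIs as detected, 4 and 11 with a floor of 20 CPM, 12 and 76 with no floor, and 0 and 2 at 1.5-fold. The genes lower were 9 at a Treg marker sum of at least 3, 2 at a sum of at least 10, and 8 without the 5% of cells with the most UMIs. Without cells rich in Cst3 or class II, also added after seeing the data, 2 were called higher and 0 lower. The sign then turned for Cst3 to 0.025 in cKO and 0.067 in WT, and in WT for Ccl5 to 0.011, Cd74 to 0.12, H2-Eb1 to 0.12, H2-Aa to 0.034 and H2-Ab1 to 0.087. In cKO it turned for Cd74 to 0.046, H2-Aa to 0.024 and H2-Ab1 to 0.32. Without cycling cells Cd74 was at 0.058, H2-Eb1 at 0.036, H2-Aa at 0.039 and H2-Ab1 at 0.097 in cKO. With 2 or more Foxp3 UMIs as detected H2-DMa was at 0.28 in WT. With every gene thinned to 4000 UMIs Iscu was at 0.0032 in WT. The cause was not tested. Over these alternatives 0 of 288 values of the 12 highest genes and 16 of 288 of the 12 lowest changed sign. These genes were chosen on the same cells, so a steady sign is no independent support. With Ctla4, Ikzf2, Ikzf4, Tnfrsf18 and Il1rl1 included, 521 values stayed within their main counting interval and 168 moved outside it. A further 7 turned sign from a main value past 0.32. No paired analysis was possible because each group has 1 library. Foxp3 averaged under 1 UMI a cell, so an undetected cell is not a cell without Foxp3.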

Other observations

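Without the cells rich in Cst3 or MHC class II, none of the lowest genes of Foxp3-detected cells was called. They included Nhp2 (a component of small nucleolar ribonucleoproteins, already among the 12 lowest over all pairs) at -0.33 in cKO and -0.25 in WT, Impdh2 (a rate-limiting enzyme of guanine nucleotide synthesis) at -0.36 in cKO and -0.22 in WT, and Snhg1 (a small nucleolar RNA host gene) at -0.29 in cKO and -0.26 in WT. Npm3, a nucleolar chaperone, was at -0.27 in cKO and -0.19 in WT, and Pa2g4, a growth-associated ribosome factor, was at -0.22 in cKO and -0.20 in WT. The S-phase genes Hist1h2ap and Rrm2 were at -0.25 and -0.24 in cKO, and at -0.27 and -0.19 in WT. Plac8, a small cysteine-rich protein of leukocytes, was at -0.51 in cKO and -0.23 in WT. Cxcl10, a chemokine, was at -0.33 in cKO and -0.24 in WT. Phb2, Sdf2l1 and Rgs16, the rest of the 12 lowest, lay between -0.32 and -0.24 in cKO and between -0.20 and -0.19 in WT. Of 14 proliferation genes, 1 was higher and 8 were lower in both libraries without these cells, with a median of -0.11 in cKO and -0.15 in WT.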
